A study of Mus musculus with 12 samples.

Results

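The 10 genes described here are markers of the first blood and vessels of the mouse embryo. They comprise 3 embryonic globins (Hba-x, Hbb-y and Hbb-bh1), the blood transcription regulators Tal1 and Lmo2, the receptors Kdr, Flt1 and Tek, and the endothelial surface proteins Pecam1 and Cdh5. They were chosen by symbol from the 23336 gene symbols of the deposited count table, where each has 1 row. All 10 passed the expression filter, as did 12814 genes in all.

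In the mouse embryo, the first red cells and the first vessels arise together in the yolk sac, from mesoderm that carries the receptor encoded by Kdr. Tal1 and Lmo2 act in 1 DNA-bound complex with GATA factors and are required for all blood. The first red cells carry embryonic globins, which are later replaced by adult chains. Endothelial cells form and stay in place through signals from vascular endothelial growth factors and angiopoietins, and they are held together by surface adhesion proteins. Mouse embryonic stem cells are known to produce both lineages when aggregated into embryoid bodies.

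RNA was sequenced from mouse embryonic stem cells in 6 groups of 2 libraries. The differentiated groups were RlimKO-labelled females, WT females (line Pgk12.1) and WT males (line E14), taken after 3 days as LIF-free embryoid bodies plus 6 days of culture in 7.5% O2. The undifferentiated groups were the same 3 kinds of cells, kept with LIF, a cytokine that holds stem cells undifferentiated. The labels give the strain C57BL/6 throughout and 1 line for each kind of cell, so sex, genotype and line cannot be told apart. Whether replicates were separate cultures is not stated, so the spread behind each p-value may be technical.

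Libraries held 2011919 to 5401940 counts in genes, of which the ribosomal RNA precursor Rn45s took 6.36% to 67.7%. Rlim, the gene named in the knockout label, stood at 290.1 and 299 CPM (counts per 1000000 of TMM-scaled library size) in differentiated RlimKO-labelled females, against 258 and 266 CPM in differentiated WT females. It stood at 159.96 and 150.04 CPM in undifferentiated RlimKO-labelled females, against 267 and 282 CPM in undifferentiated WT females. With edgeR's quasi-likelihood test the log2 difference was 0.17 ± 0.14 (SE, adjusted p = 0.654) after differentiation and -0.82 ± 0.15 (adjusted p = 0.0437) before it. The labels do not state which part of the gene was deleted. As counts went against the label after differentiation, the group is called RlimKO-labelled throughout. Differentiated WT male replicates 1 and 2 differed from each other far more than any other pair (chi-square per degree of freedom of 26.9, against 1.92 to 2.44 in the other 5 pairs, with Rn45s and Lars2 left out, the second of them after its values were seen). Both held counts of the Y-linked gene Ddx3y, at 23.9 CPM in replicate 1 and 23.1 CPM in replicate 2. They are given separately below. Pluripotency markers, summed over 11 genes, stood at 98.0 to 103 CPM in differentiated RlimKO-labelled females, 217 to 220 CPM in differentiated WT females, 64.7 CPM in differentiated male replicate 1 and 183 CPM in replicate 2, against 1989 to 2297 CPM in the undifferentiated groups.

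The sequences before the start of 4 of the genes are shown because their levels part ways below: the globins Hba-x and Hbb-y, and the vascular endothelial growth factor receptors Kdr and Flt1. Each is the 250 bases before the RefSeq start site (GRCm38.p6), written 5′ to 3′ on the gene's own strand, at chr11:32276350-32276599 (plus strand) for Hba-x, chr7:103853208-103853457 (minus strand) for Hbb-y, chr5:75978456-75978705 (minus strand) for Kdr and chr5:147726012-147726261 (minus strand) for Flt1. GENCODE, used for the gene places below, starts Hba-x earlier, at 32276400, so most of its stretch lies inside the gene as placed there. For Hbb-y and Kdr a few bases of the stretch do too. Capitals mark a GATA match (AGATAA, with T also taken at its first base and G at its last) or a CACCC match, on either strand.
Hba-x: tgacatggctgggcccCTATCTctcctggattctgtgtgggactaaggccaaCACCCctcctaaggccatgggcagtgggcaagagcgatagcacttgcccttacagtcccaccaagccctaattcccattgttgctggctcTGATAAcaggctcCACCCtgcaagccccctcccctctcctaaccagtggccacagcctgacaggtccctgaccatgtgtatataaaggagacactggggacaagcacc
Hbb-y: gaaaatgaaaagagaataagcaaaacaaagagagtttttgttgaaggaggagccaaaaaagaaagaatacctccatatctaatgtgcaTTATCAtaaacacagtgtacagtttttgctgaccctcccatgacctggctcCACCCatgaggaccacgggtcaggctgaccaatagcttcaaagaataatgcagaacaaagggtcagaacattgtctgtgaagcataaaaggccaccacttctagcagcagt
Kdr: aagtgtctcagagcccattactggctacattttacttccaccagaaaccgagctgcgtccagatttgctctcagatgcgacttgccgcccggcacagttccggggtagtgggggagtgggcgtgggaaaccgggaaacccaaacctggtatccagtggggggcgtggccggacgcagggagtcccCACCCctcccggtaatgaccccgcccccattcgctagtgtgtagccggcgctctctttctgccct
Flt1: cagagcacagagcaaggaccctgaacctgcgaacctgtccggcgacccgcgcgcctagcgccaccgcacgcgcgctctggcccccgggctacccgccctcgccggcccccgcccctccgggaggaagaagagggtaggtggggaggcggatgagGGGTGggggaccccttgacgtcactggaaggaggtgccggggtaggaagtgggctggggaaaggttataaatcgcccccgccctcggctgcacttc
GATA matches are letters that GATA factors are known to bind, and CACCC boxes are known from globin promoters. Windows of 300 bases (250 before and 50 after the start) were at hand for 6 of the 10 genes: Hba-x, Hbb-y, Tal1, Kdr, Flt1 and Tek. Hba-x held 2 GATA and 2 CACCC matches, and Hbb-y held 1 of each. Tek and the first of the 2 Tal1 windows also held 1 of each, and the second Tal1 window held neither. Kdr and Flt1 held 0 GATA matches and 1 CACCC match each. Of all 32851 windows, 29.8% held a GATA match and 57.5% a CACCC match, so neither is particular to these genes.

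The beta-like globins Hbb-y and Hbb-bh1 are neighbours on chromosome 7 and similar in sequence, so their reads had to be told apart. Over 444 coding bases (GENCODE M21 transcripts) they were 76.4% identical and differed at 105 bases, and the longest run their transcripts share was 26 bases. The stretch of 90 coding bases with the most differences, coding positions 1 to 90, is shown with its 30 differing bases in capitals.
Hbb-y: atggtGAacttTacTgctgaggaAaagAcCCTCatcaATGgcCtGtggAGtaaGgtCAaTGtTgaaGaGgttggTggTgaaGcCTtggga
Hbb-bh1: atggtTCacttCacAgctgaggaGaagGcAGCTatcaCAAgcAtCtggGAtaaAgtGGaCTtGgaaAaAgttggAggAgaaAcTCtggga
The adult globins were listed at 0 counts in all 12 libraries under the symbols Hba-a1, Hba-a2, Hbb-b1 and Hbb-b2. The coding sequences of Hba-a1 and Hba-a2 differed at 1 base, as did those of the annotated adult beta pair Hbb-bs and Hbb-bt, so reads that fit both copies of a pair may have been dropped in counting. The zeros are therefore uncertain.

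Differentiated cells of all 3 lines carried embryonic globin counts, and undifferentiated cells carried almost none. The highest levels and, apart from undifferentiated cells, the lowest were both in differentiated WT males, in replicates 1 and 2. Hba-x, the embryonic alpha-like globin (chr11:32276400-32278116), stood at 17.5 and 25.8 CPM in differentiated RlimKO-labelled females and 16.4 and 7.95 CPM in differentiated WT females. It reached 89.3 CPM in differentiated male replicate 1, against 0.859 CPM in replicate 2. In undifferentiated cells it stood at 0 and 0.426 CPM in RlimKO-labelled females, 0 in both WT female libraries, and 0.371 and 0.441 CPM in males. Every differentiated library was thus above every undifferentiated one, but male replicate 2, with 8 counts, was only just so.

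Hbb-bh1, an embryonic beta-like globin (chr7:103841637-103843164), had the most counts of the 3 in every differentiated library. It stood at 57.9 and 71.0 CPM in differentiated RlimKO-labelled females and 22.3 and 21.2 CPM in differentiated WT females. Differentiated male replicate 1 had 103 CPM and replicate 2 had 2.69 CPM. Undifferentiated cells had at most 1.28 CPM (3 counts). Hbb-y, the other embryonic beta-like globin (chr7:103851749-103853216), stood at 6.91 and 4.15 CPM in differentiated RlimKO-labelled females and 7.69 and 8.48 CPM in differentiated WT females. Differentiated male replicate 1 had 16.3 CPM, whereas replicate 2 had 0 counts, like all undifferentiated libraries but 1 male library with 1 count.

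The mix of the 3 globins also differed between libraries. Hbb-y made up 8.39% (95% exact binomial interval 4.54 to 13.9%) and 4.11% (2.41 to 6.49%) of the 3-globin counts in differentiated RlimKO-labelled females, against 16.6% (12.1 to 21.98%) and 22.5% (16.0 to 30.3%) in differentiated WT females. Its share was 7.81% (6.15 to 9.75%) in differentiated male replicate 1 and 0 of 33 counts in replicate 2 (0 to 10.6%). The RlimKO-labelled and WT female shares did not overlap, though the interval of RlimKO-labelled replicate 1 reached into that of WT replicate 1. Hbb-bh1 made up 70.3% of the counts in both RlimKO-labelled libraries, against 48.1% and 56.3% in WT females. These intervals cover counting error only, since amplified reads are not independent molecules.

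**Figure D1:**
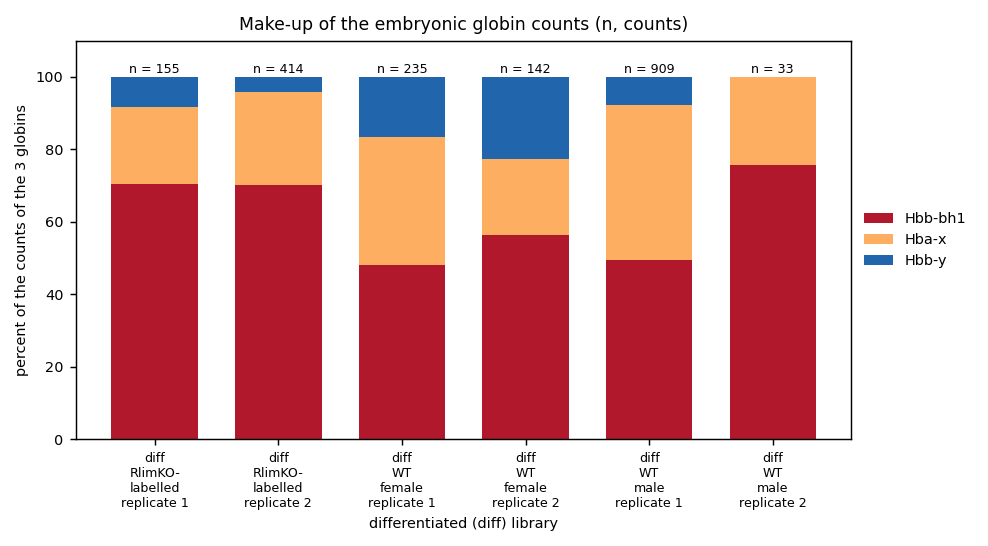
Stacked bars show the percent of the counts of Hbb-bh1, Hba-x and Hbb-y in each differentiated library (horizontal axis), with the number of counts above each bar. Hbb-bh1 is the largest part in all 6 libraries, and Hbb-y is larger in the WT female libraries (16.6% and 22.5%) than in the other 4.

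The blood regulators were low throughout. Tal1, which encodes a helix-loop-helix factor required for blood formation (chr4:115056426-115071755), stood at 4.25 and 5.12 CPM in differentiated RlimKO-labelled females, 3.95 and 5.03 CPM in differentiated WT females, 5.51 CPM in differentiated male replicate 1 and 0.537 CPM in replicate 2. In undifferentiated cells it stood at 2.34 and 4.69 CPM in RlimKO-labelled females, 0.525 and 0.477 CPM in WT females, and 0 and 0.220 CPM in males. Differentiated male replicate 2 was level with undifferentiated WT females, and undifferentiated RlimKO-labelled replicate 2 was within the range of the differentiated females.

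Lmo2, which encodes the LIM-domain partner of Tal1 (chr2:103957986-103981878), held 1 to 9 counts per library. It stood at 2.66 and 1.71 CPM in differentiated RlimKO-labelled females, 0.789 and 1.59 CPM in differentiated WT females, 2.07 CPM in differentiated male replicate 1 and 0.107 CPM in replicate 2. Undifferentiated levels were 2.92 and 0.852 CPM in RlimKO-labelled females, 3.68 and 3.34 CPM in WT females, and 0.371 and 0.661 CPM in males. The span of Lmo2 overlaps that of 4931422A03Rik on the other strand. As this library type does not mark strand, reads from any exon bases they share cannot be told apart. Whether these exons overlap was not examined.

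Of the 3 receptors, Kdr and Flt1 were near 0 before differentiation and Tek was not. Kdr, which encodes the main signalling receptor of vascular endothelial growth factor A (chr5:75932827-75978458), stood at 45.2 and 51.2 CPM in differentiated RlimKO-labelled females, 54.1 and 49.3 CPM in differentiated WT females, 110.2 CPM in differentiated male replicate 1 and 28.1 CPM in replicate 2. No undifferentiated library had more than 0.852 CPM, or 2 counts. The female groups overlapped, and the male replicates stood on either side of them.

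Flt1, which encodes a receptor that binds the same growth factor tightly and also placental growth factor (chr5:147561604-147726011), stood at 38.8 and 29.7 CPM in differentiated RlimKO-labelled females and 65.3 and 58.0 CPM in differentiated WT females. Here the male replicates changed places, with 49.8 CPM in replicate 1 and 125 CPM in replicate 2, the highest of all 12 libraries. Undifferentiated levels were 1.17 and 2.13 CPM in RlimKO-labelled females, 0 and 0.477 CPM in WT females, and 2.60 and 1.54 CPM in males.

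Tek, which encodes the angiopoietin receptor Tie2 (chr4:94739289-94874976), stood at 107 and 91.2 CPM in differentiated RlimKO-labelled females, 31.2 and 40.0 CPM in differentiated WT females, 165 CPM in differentiated male replicate 1 and 26.7 CPM in replicate 2. Unlike Kdr and Flt1 it was clearly present before differentiation, at 8.17 and 8.95 CPM in RlimKO-labelled females, 13.1 and 12.9 CPM in WT females, and 12.6 and 14.3 CPM in males.

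Pecam1 and Cdh5 encode proteins of endothelial cell contacts, and they moved in opposite directions. Pecam1 (chr11:106654217-106750628), which mouse embryonic stem cells are also known to make, stood at 10.1 and 10.7 CPM in differentiated RlimKO-labelled females, 12.6 and 13.2 CPM in differentiated WT females, 39.0 CPM in differentiated male replicate 1 and 7.20 CPM in replicate 2. Undifferentiated levels were 32.1 and 29.8 CPM in RlimKO-labelled females, 48.8 and 47.2 CPM in WT females, and 72.1 and 69.0 CPM in males. Within each line every differentiated library was below every undifferentiated one.

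Cdh5, which encodes the cadherin of endothelial junctions (chr8:104101625-104144511), stood at 15.9 and 21.7 CPM in differentiated RlimKO-labelled females, 12.8 and 15.6 CPM in differentiated WT females, 54.9 CPM in differentiated male replicate 1 and 1.83 CPM in replicate 2. It had 0 counts in the undifferentiated RlimKO-labelled and male libraries and 3 counts over both undifferentiated WT female libraries. The span of Cdh5 overlaps that of Gm29682, an antisense gene, and reads from any exon bases they share cannot be told apart. Whether their exons overlap was not examined.

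**Figure D2:**
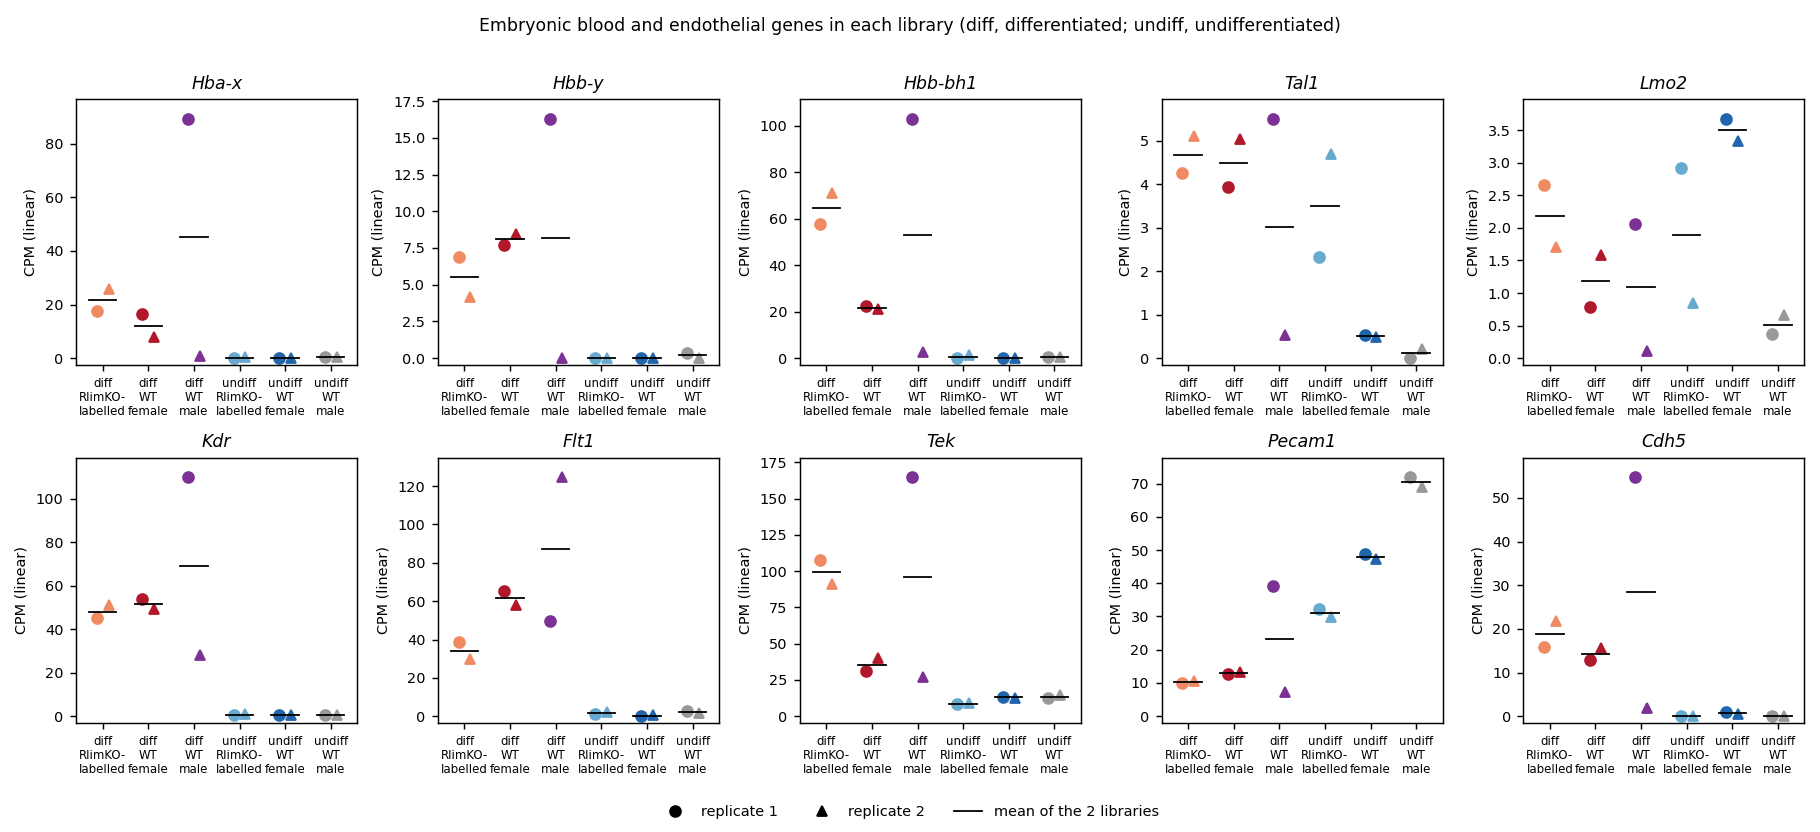
Each panel plots the CPM of 1 gene on a linear axis in the 12 libraries by group (diff, differentiated; undiff, undifferentiated; circles, replicate 1; triangles, replicate 2; lines, mean of 2). In differentiated males, replicate 1 lies above replicate 2 in every panel except Flt1, where replicate 2 has 125 CPM and replicate 1 has 49.8 CPM.

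Levels of different genes can be set side by side only per length, here as CPM per kilobase of exons. This length joins the exons of all annotated transcripts of a gene, such as 13504 bases for Flt1. It can exceed that of the transcript made, so close places in the order are uncertain. On that scale the order in differentiated RlimKO-labelled females ran from Hbb-bh1 (105 ± 15.1, mean ± SD, n = 2) and Hba-x (23.1 ± 6.27) through Tek (21.1 ± 2.42), Hbb-y (8.73 ± 3.08), Kdr (5.34 ± 0.47) and Cdh5 (4.48 ± 0.97) to Flt1 (2.54 ± 0.47), Pecam1 (1.67 ± 0.072), Tal1 (1.07 ± 0.14) and Lmo2 (1.01 ± 0.31). Hba-x and Tek, Kdr and Cdh5, and Tal1 and Lmo2 did not differ beyond their spread. In differentiated WT females Hbb-bh1 (35.5 ± 1.26) again led, ahead of Hba-x (12.97 ± 6.35) and Hbb-y (12.8 ± 0.88), which did not differ beyond their spread. In undifferentiated cells Pecam1 led in each line, at 4.97 ± 0.26 in RlimKO-labelled females, 7.71 ± 0.19 in WT females and 11.3 ± 0.35 in males, and Tek came next, at 1.82 ± 0.12 in RlimKO-labelled females, 2.76 ± 0.038 in WT females and 2.86 ± 0.26 in males.

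Differentiation was tested within each line with edgeR's quasi-likelihood test over all 12 libraries, with Benjamini-Hochberg adjustment over all genes tested. A gene was called where the adjusted p was below 0.05. In RlimKO-labelled females 6 of 10 genes rose (background: 26.4% of all tested genes) and 1 fell (21.6%). In WT females 6 rose (26.5%) and 1 fell (22.2%), and in males 8 rose (28.7%) and 1 fell (25.4%). The median log2 fold change over the 10 genes was 5.12 in RlimKO-labelled females, 5.39 in WT females and 5.46 in males, against 0.10, 0.09 and 0.05 over all genes tested in the same lines. With genes at 0 set to their floor it was 3.89 in RlimKO-labelled females, 3.76 in WT females and 5.46 in males. In bulk RNA, more cells of a type and more RNA per cell cannot be told apart.

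Kdr, Flt1 and Hbb-bh1 rose in all 3 lines. The depth-scaled counts of Kdr were higher in differentiated cells by 66.7-fold (95% counting interval 22.6 to 325) in RlimKO-labelled females, 104-fold (28.7 to 862) in WT females and 131-fold (44.6 to 636) in males. The adjusted p of edgeR was 2.8e-05 in RlimKO-labelled females, 1.68e-05 in WT females and 1.63e-06 in males. Flt1 rose by a log2 fold change of 4.27 ± 0.58 (SE) in RlimKO-labelled females (adjusted p = 3.42e-05) and 5.47 ± 0.48 in males (adjusted p = 3.19e-07), and by 249-fold (44.5 to 9851) in WT females, where the undifferentiated pair held 1 count (adjusted p = 1.25e-06). Hbb-bh1 was higher by 90.5-fold (30.7 to 440) in RlimKO-labelled females and by at least 29.1-fold in WT females, taking 3 counts over the group as the floor of the undifferentiated pair. In males its log2 fold change was 6.45 ± 1.49. The adjusted p was 0.00477 in RlimKO-labelled females, 0.0197 in WT females and 0.00245 in males.

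Pecam1 fell in all 3 lines, by 1.56 ± 0.56 on the log2 scale in RlimKO-labelled females (adjusted p = 0.0323), 1.89 ± 0.50 in WT females (adjusted p = 0.00635) and 1.69 ± 0.46 in males (adjusted p = 0.00665). Tek rose by 3.52 ± 0.66 in RlimKO-labelled females (adjusted p = 0.00055) and 2.79 ± 0.57 in males (adjusted p = 0.000888). In WT females the Tek log2 fold change was 1.45 ± 0.64 and missed the threshold (adjusted p = 0.0737).

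The other calls rested on few undifferentiated counts, and in males mostly on differentiated replicate 1. Kdr and Hbb-bh1 also had few undifferentiated counts. Kdr held 3 over the RlimKO-labelled pair, 2 over the WT female pair and 3 over the male pair, and Hbb-bh1 held 3, 0 and 4. In differentiated male replicate 1 Hba-x held 389 counts, against 8 in replicate 2, Hbb-y 71 against 0, Tal1 24 against 5 and Cdh5 239 against 17. Hbb-bh1 likewise held 449 against 25. Cdh5 was higher by at least 26.9-fold in RlimKO-labelled females (adjusted p = 0.0137) and at least 45.1-fold in males (adjusted p = 0.00238), and by 18.7-fold (6.26 to 92.0) in WT females (adjusted p = 0.0464). Hba-x was higher by 94.3-fold (16.6 to 3751) in RlimKO-labelled females (adjusted p = 0.0345) and 70.0-fold (23.8 to 341) in males (adjusted p = 0.00526). In WT females its counts were at least 17.1-fold higher but the test missed the threshold (adjusted p = 0.0595). Hbb-y was at least 10.7-fold higher in WT females (adjusted p = 0.0463) and 37.6-fold (6.53 to 1504) higher in males (adjusted p = 0.0336). In RlimKO-labelled females it was at least 6.78-fold higher without reaching the threshold (adjusted p = 0.0848). Tal1 was higher by 8.83-fold (2.29 to 75.5) in WT females (adjusted p = 0.0409) and 15.3-fold (2.54 to 627) in males (adjusted p = 0.0176). Its log2 fold change in RlimKO-labelled females was 0.39 ± 0.85 (adjusted p = 0.726). Lmo2 was not called, with an adjusted p of 0.877 in RlimKO-labelled females, 0.192 in WT females and 0.652 in males.

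These calls differed in how far they rested on single libraries, and the share of all genes called moved between fits as well. In males without differentiated replicate 1, the log2 fold change was 1.05 for Hba-x, -2.28 for Hbb-y, 1.78 for Tal1 and 2.27 for Hbb-bh1. With both differentiated male replicates it was 6.61, 5.45, 4.02 and 6.45 in the same order. In WT females the count of called genes went to 3 without either undifferentiated WT female library, losing Hbb-bh1, Hbb-y, Tal1 and Cdh5. It went to 4 without undifferentiated male replicate 1 or any 1 of the differentiated WT female libraries or of the RlimKO-labelled libraries of either state, losing Hbb-y, Tal1 and Cdh5, and Hbb-y was also lost without undifferentiated male replicate 2. In RlimKO-labelled females it went to 4 without either undifferentiated RlimKO-labelled library, losing Hba-x, Pecam1 and Cdh5, and Hba-x and Pecam1 were also lost without either differentiated RlimKO-labelled library. Hba-x was lost there too without either undifferentiated WT female library. In males the calls of Hbb-y and Tal1 were lost without either undifferentiated male library, and that of Hba-x without undifferentiated male replicate 2. Fitted on the 4 male libraries alone, the call of Pecam1 was lost (adjusted p = 0.0865), and Hba-x, Hbb-y and Tal1 did not pass the filter and were not tested. With DESeq2 the calls of Hbb-y, Tal1 and Cdh5 in WT females and of Hbb-y in males were lost, and Hba-x was called in WT females. The calls of Kdr and Flt1 in all 3 lines were kept in each of the 12 fits without 1 library.

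**Figure D3:**
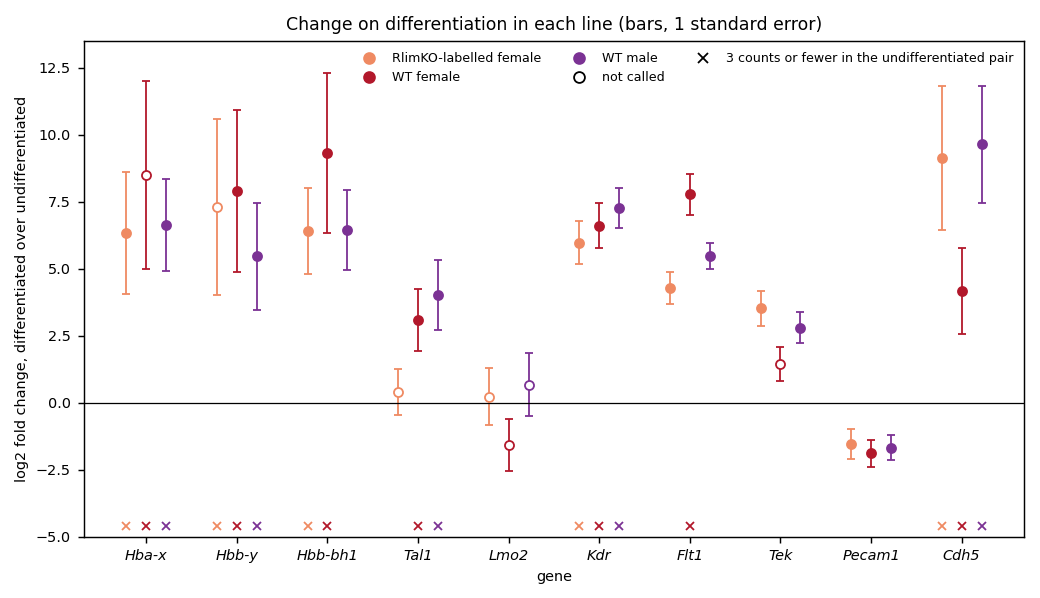
Points show the log2 fold change of differentiated over undifferentiated cells for each gene in the 3 lines, with bars of 1 standard error, and open points missed the threshold. Crosses mark values with 3 counts or fewer in the undifferentiated pair, where the fitted fold depends on the prior count; Pecam1 is the only gene called lower.

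In Flt1 the differentiated male replicates parted the other way from the rest of the 10 genes. How many of all genes parted in either direction was not counted. Depth-scaled counts were higher in replicate 1 than in replicate 2 by 104-fold for Hba-x (95% counting interval 52.2 to 242), 38.4-fold for Hbb-bh1 (25.7 to 60.0) and at least 50.6-fold for Hbb-y. They were higher by 30.0-fold for Cdh5 (18.4 to 52.4), 10.3-fold for Tal1 (3.84 to 34.4), 6.17-fold for Tek (5.34 to 7.16), 5.42-fold for Pecam1 (4.06 to 7.31) and 3.92-fold for Kdr (3.36 to 4.57). For Lmo2 the ratio was 19.2 (2.67 to 843), on 9 and 1 counts. For Flt1 the ratio was 0.399 (0.343 to 0.461). These intervals cover counting error between 2 libraries and do not compare conditions. The globins and Cdh5 thus parted by more than the receptors did.

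Replicate 2 was also the library with the lowest Rn45s share (6.36%, against 22.5% in replicate 1). Its summed level over 27 further endothelial genes was 499 CPM, against 1661 CPM in replicate 1, and over 8 fibroblast and feeder genes it was 3082 CPM, against 9542 CPM. Most of the endothelial sum came from Nrp1 (266 CPM, against 875 CPM in replicate 1) and Nrp2 (118 CPM, against 337 CPM). Nrp1 is also made by neurons and mesenchyme, so the sum is not a measure of endothelial cells alone. Over 12 visceral endoderm genes the sum in replicate 2 was 1055 CPM, against 833 CPM in replicate 1, and over 10 trophoblast genes 53.4 CPM, against 34.2 CPM. Over 9 cardiac muscle genes it was 249 CPM, against 188 CPM, but the genes went both ways. Myh7 was higher in replicate 2 (127 CPM, against 27.8 CPM). Hand2 (26.6 CPM, against 78.8 CPM) and Actc1 (23.5 CPM, against 45.9 CPM) were lower. The part of these lists in the levels of the 10 genes was not tested. The fits with 1 male library kept were chosen for description after their values were seen. The change on differentiation in males, with the lone male library assumed to vary like the other groups, was called for 8 genes upward (31.3% of all genes) and 1 downward (26.5%) without replicate 2. Without replicate 1 it was called for 5 upward (32%) and 1 downward (26.5%), and Hba-x, Hbb-y and Tal1 were lost. Kdr, Flt1, Tek, Cdh5 and Hbb-bh1 were called upward and Pecam1 downward in both fits.

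Among the 10 genes, female libraries lay between the male replicates with exceptions in Flt1 and Lmo2. Flt1 was below both male replicates in RlimKO-labelled females, and Lmo2 was above both in RlimKO-labelled replicate 1. How many of all genes lay so was not counted, and the male replicates differed over genes in general (chi-square per degree of freedom of 26.9). With both kept, RlimKO-labelled females differed from males in 1 gene, Flt1, which was lower (log2 fold change -1.38 ± 0.34, adjusted p = 0.0174), where 5.97% of all genes were called lower. That call was lost without either differentiated RlimKO-labelled library and without male replicate 2, where it was -0.60 ± 0.23 (adjusted p = 0.0501). It was also lost when the 4 libraries were fitted alone. WT females differed from males in 0 of 10 genes (8.97% of all genes in either direction). By unadjusted p under 0.05, 1 gene passed in each of these 2 comparisons. Of all 12814 genes, 3506 passed for RlimKO-labelled females against males and 3150 for WT females against males. DESeq2 called 1 gene in RlimKO-labelled females against males and 0 in WT females against males.

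Against male replicate 2 alone, 8 genes were higher in RlimKO-labelled females (15.7% of all genes) and 1, Flt1, was lower (18%). In WT females 7 were higher (17.2%) and Flt1 was lower (15.5%). On the log2 scale Hba-x was higher by 4.63 ± 0.51 in RlimKO-labelled females and 3.83 ± 0.52 in WT females, and Cdh5 by 3.36 ± 0.44 in RlimKO-labelled females and 2.95 ± 0.44 in WT females. Against male replicate 1 alone the direction turned for genes other than Flt1: 7 genes were lower in RlimKO-labelled females (10%) and 0 were higher (8.62%), and in WT females 6 were lower (7.83%) and 0 were higher (8.56%). The log2 difference of Hba-x was then -2.003 ± 0.25 in RlimKO-labelled females and -2.82 ± 0.25 in WT females, and that of Cdh5 -1.52 ± 0.26 in RlimKO-labelled females and -1.95 ± 0.26 in WT females. Flt1 was not called against replicate 1, at -0.60 ± 0.23 in RlimKO-labelled females and 0.32 ± 0.21 in WT females. The female comparisons share the male library, so they are not independent of each other. In each of these fits a single library stands for the males and is assumed to vary like the other groups. The standard errors and calls therefore leave out the spread between the male replicates (chi-square per degree of freedom of 26.9). They describe each male library and do not compare females with males as conditions.

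**Figure D4:**
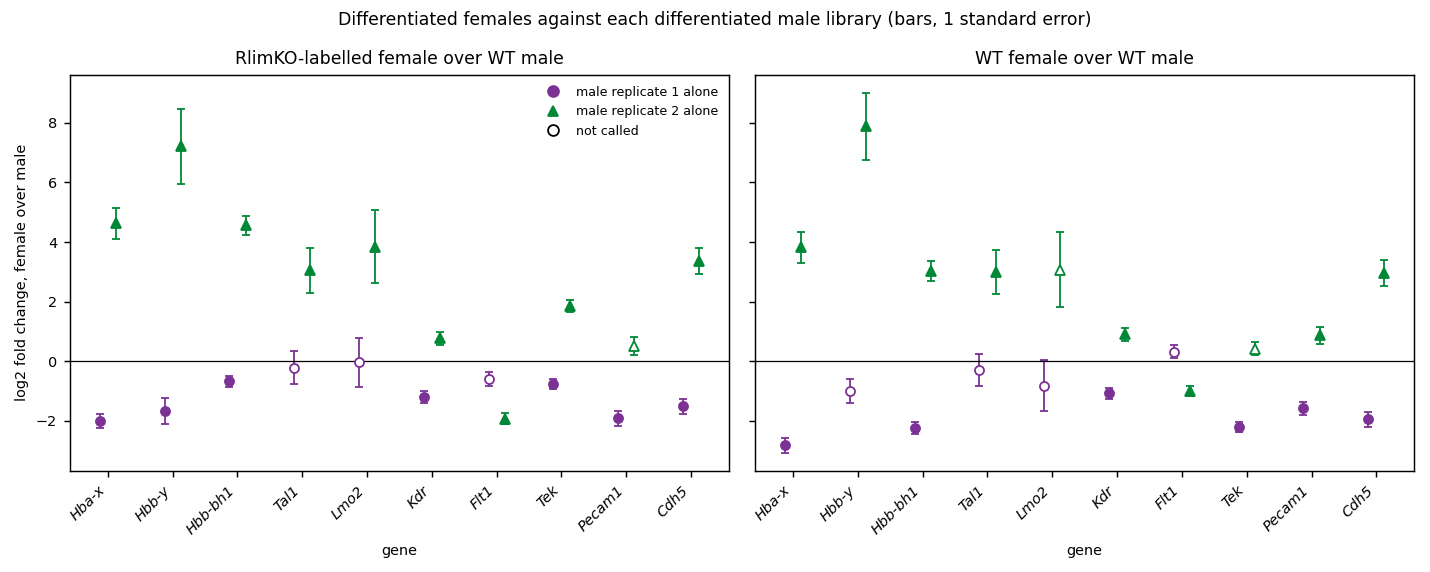
Points show the log2 fold change of differentiated females over differentiated WT males, RlimKO-labelled on the left and WT on the right, with 1 male library kept at a time (circles, replicate 1; triangles, replicate 2; bars, 1 standard error; open points, not called). Every gene but Flt1 is above 0 against replicate 2 and below 0 against replicate 1. The bars and calls leave out the spread between the male replicates.

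Between the differentiated female groups, the model of all 12 libraries called 0 of 10 genes with edgeR (2.59% of all genes in either direction) and 0 with DESeq2. By unadjusted p under 0.05, 2 passed, as did 1872 of all 12814 genes. The widest differences were in Tek, higher in RlimKO-labelled females at 1.48 ± 0.52 (adjusted p = 0.173), Hbb-bh1, at 1.57 ± 0.89 (adjusted p = 0.449), and Flt1, at -0.87 ± 0.34 (adjusted p = 0.232). The model's estimate of spread is shared with the divergent male pair. The fit on the compared libraries alone was chosen for description after its calls were seen. Fitted on the 4 differentiated female libraries alone, Tek, Hbb-bh1 and Hba-x were called higher in RlimKO-labelled females (8.81% of all genes) and Flt1 lower (9.96%). In that fit Tek stood at 1.47 ± 0.14 (adjusted p = 1.28e-08), Hbb-bh1 at 1.59 ± 0.15 (adjusted p = 1.98e-08), Hba-x at 0.85 ± 0.26 (adjusted p = 0.0209) and Flt1 at -0.90 ± 0.15 (adjusted p = 8.41e-05). Without differentiated male replicate 1 the calls were Tek, Hbb-bh1 and Flt1, and without replicate 2 all 4 genes. Kdr was close to equal in the 2 groups, at -0.10 ± 0.41 in the full model and -0.09 ± 0.14 in the females alone.

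Before differentiation, 0 of 10 genes were called in each pair of lines: RlimKO-labelled against WT females (0.242% of all genes in either direction), WT females against males (6.63%) and RlimKO-labelled females against males (10%). By unadjusted p under 0.05 they numbered 1, 1 and 2 (1289, 2749 and 3186 of all 12814 genes). DESeq2 gave 0 in each pair as well. Tal1 came closest, with 15 counts over the RlimKO-labelled pair against 1 count over the male pair (adjusted p = 0.051), and it was called in both fits without 1 differentiated male library. The differences between lines in the change on differentiation were called in 0 of 10 genes for RlimKO-labelled against WT females (0.203%), WT females against males (1.39%) and RlimKO-labelled females against males (2.61%). By unadjusted p under 0.05 they numbered 2, 0 and 1 (1262, 1958 and 2273 of all 12814 genes). For Tek the change was larger in RlimKO-labelled than in WT females by 2.07 ± 0.96 on the log2 scale (adjusted p = 0.497), and this was called in both fits without 1 differentiated male library.

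Further genes of the same lineages were followed by lists, whose counts stand beside a background over all genes tested of 26.4% higher and 21.6% lower in RlimKO-labelled females, 26.5% and 22.2% in WT females, and 28.7% and 25.4% in males. Of 10 tested ligand genes, which encode growth factors of blood and vessels, 7 rose in RlimKO-labelled females, 6 in WT females and 6 in males, and 0 fell (median log2 fold change 2.05 in RlimKO-labelled females, 2.58 in WT females and 2.70 in males, or 2.05, 1.77 and 2.38 in the same order with genes at 0 at their floor). Bmp4, which induces blood mesoderm, rose by 2.80 ± 0.25 in RlimKO-labelled females, 3.31 ± 0.29 in WT females and 3.46 ± 0.23 in males. Vegfa, the main ligand of Kdr, rose by 1.29 ± 0.19 in RlimKO-labelled females, 1.94 ± 0.18 in WT females and 1.94 ± 0.17 in males, and in differentiated cells it was lower in RlimKO-labelled than in WT females (-0.74 ± 0.17, adjusted p = 0.0295). Pgf, the placental growth factor that binds Flt1, stood at 16.5 and 12.9 CPM in differentiated RlimKO-labelled females, 13.6 and 17.5 CPM in differentiated WT females, and 16.1 and 19.3 CPM in differentiated males, against at most 0.953 CPM in undifferentiated cells. Kitl, the ligand of Kit, rose by 3.67 ± 0.47 in RlimKO-labelled females, 3.22 ± 0.51 in WT females and 4.48 ± 0.50 in males.

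Of 22 tested endothelial genes, 11 rose and 3 fell in RlimKO-labelled females, 9 rose and 2 fell in WT females, and 12 rose and 2 fell in males (median log2 fold change 3.24 in RlimKO-labelled females, 3.01 in WT females and 3.11 in males, or 2.39, 2.06 and 2.17 in the same order with genes at 0 at their floor). Ets1, an endothelial and blood transcription factor, rose by 6.06 ± 0.48 in RlimKO-labelled females, 7.48 ± 0.51 in WT females and 3.91 ± 0.32 in males. Nrp1, a co-receptor for vascular endothelial growth factors also made by neurons and mesenchyme, rose by 8.15 ± 0.61 in RlimKO-labelled females, 9.90 ± 0.76 in WT females and 7.12 ± 0.57 in males. Nrp1 stood at 1228 and 1269 CPM in differentiated RlimKO-labelled females, 745 and 754 CPM in differentiated WT females, 875 CPM in male replicate 1 and 266 CPM in replicate 2. Nrp2 rose by 3.01 ± 0.36 in RlimKO-labelled females, 2.04 ± 0.35 in WT females and 3.63 ± 0.37 in males. Aplnr, the apelin receptor, stood at 32.4 and 20.5 CPM in differentiated RlimKO-labelled females, 11.4 and 15.6 CPM in differentiated WT females, 44.5 CPM in male replicate 1 and 6.23 CPM in replicate 2, against at most 0.953 CPM in undifferentiated cells.

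Of 12 tested blood progenitor genes, 6 rose and 2 fell in RlimKO-labelled females, 6 rose and 1 fell in WT females, and 7 rose and 3 fell in males (median log2 fold change 2.73 in RlimKO-labelled females, 2.41 in WT females and 2.58 in males, or 2.20, 1.501 and 2.58 in the same order with genes at 0 at their floor). Runx1, which is required for definitive blood, stood at 11.7 and 9.02 CPM in differentiated RlimKO-labelled females, 36.5 and 34.2 CPM in differentiated WT females, 51.0 CPM in male replicate 1 and 21.2 CPM in replicate 2, against at most 1.32 CPM in undifferentiated cells. After differentiation, 1 of the 12 genes was called higher in RlimKO-labelled than in WT females (1.05% of all genes) and 2 were called lower (1.55%). Itga2b, an early marker of embryonic blood cells, was lower in RlimKO-labelled females (-2.74 ± 0.49, adjusted p = 0.00767). Kit, the stem cell factor receptor, was lower there too (-1.11 ± 0.18, adjusted p = 0.00408). Myb, a factor of definitive progenitors that stem cells also express, fell by 3.12 ± 0.42 in RlimKO-labelled females, 2.62 ± 0.41 in WT females and 5.02 ± 0.44 in males on differentiation.

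Red cell genes other than the 3 embryonic globins were low, summing to 8.92 to 45.9 CPM over 16 genes in differentiated libraries. The globins among the 16, such as Hba-a1, Hbb-bh2 and Hbq1b, held at most 2 counts in any group. None of these globins passed the filter. Of 16 erythroid genes in the table, 7 passed the filter, and 1 rose in each line with 0 falling, a share below that of all genes (median log2 fold change 1.95 in RlimKO-labelled females, 1.34 in WT females and 1.18 in males, or 1.95, 1.10 and 1.18 in the same order with genes at 0 at their floor). Slc4a1, the anion exchanger of the red cell membrane, rose in RlimKO-labelled females (adjusted p = 0.0412) and in males (adjusted p = 0.0413). It stood at 5.84 and 4.39 CPM in differentiated RlimKO-labelled females, 3.16 and 3.18 CPM in differentiated WT females, 7.12 CPM in male replicate 1 and 0.322 CPM in replicate 2. Epor, the erythropoietin receptor, was called in WT females (adjusted p = 0.0188), with 22 counts against 0. Alas2, the first enzyme of haem synthesis in red cells, was not called in any line.

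Of 6 tested mesoderm precursor genes, 3 rose in RlimKO-labelled females, 3 in WT females and 4 in males, and 1, Eomes, fell in RlimKO-labelled females. With genes at 0 at their floor the median log2 fold change was 2.41 in RlimKO-labelled females, 2.17 in WT females and 4.10 in males. Hand1, a factor of extraembryonic mesoderm, stood at 111 CPM in both differentiated RlimKO-labelled libraries, 31.4 and 35.5 CPM in differentiated WT females, and 155 and 98.8 CPM in differentiated males. It was higher in RlimKO-labelled than in WT females (1.73 ± 0.25, adjusted p = 0.00292). Pdgfra, a receptor of paraxial and other mesoderm, stood at 82.9 and 81.7 CPM in differentiated RlimKO-labelled females, 87.6 and 86.7 CPM in differentiated WT females, 141 CPM in male replicate 1 and 85.5 CPM in replicate 2.

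**Figure D5:**
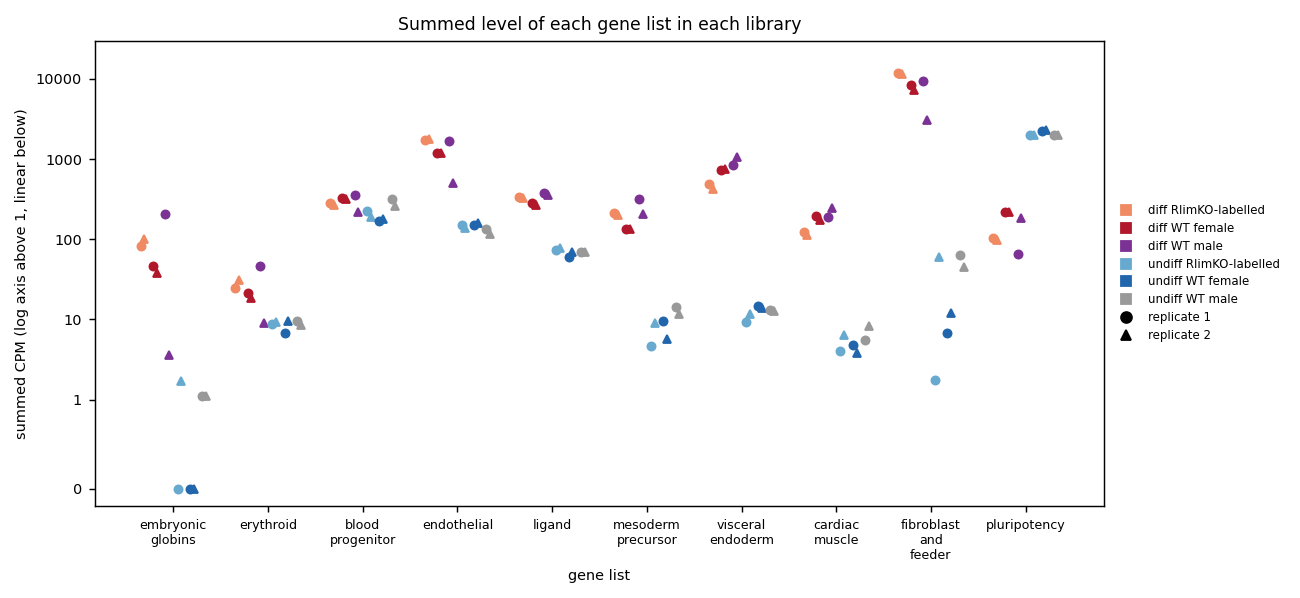
Points show the summed CPM of each gene list (horizontal axis) in the 12 libraries, by group (colour) and replicate (circles, 1; triangles, 2), on an axis that is logarithmic above 1 and linear below. Differentiated male replicate 2 is the lowest differentiated library for the globins (3.54 CPM), erythroid (8.92 CPM), endothelial (499 CPM) and fibroblast lists, and the highest for visceral endoderm (1055 CPM). Nrp1 alone held 266 CPM of the endothelial sum in that library.

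Markers of other tissues also rose on differentiation. Of 11 tested visceral endoderm genes, 9 rose in RlimKO-labelled females, 10 in WT females and 11 in males. Of 7 cardiac muscle genes, 4 rose in RlimKO-labelled females, 7 in WT females and 7 in males. Of 8 fibroblast and feeder genes 7 rose in each line, and 1 fell in males. Of 5 trophoblast genes, 4 rose in RlimKO-labelled females, 3 in WT females and 3 in males, and 1, Tfap2c, fell in WT females and in males. Their part in the levels of the 10 genes was not tested. Macrophage genes were low, with a sum over 7 genes of 9.51 to 11.2 CPM in differentiated RlimKO-labelled females, 22.9 to 23.8 CPM in differentiated WT females, and 14.01 and 26.5 CPM in differentiated males, against 5.11 to 11.6 CPM in undifferentiated cells. Ptprc, the pan-leukocyte surface protein CD45, held 1 count over the differentiated RlimKO-labelled pair, 12 over the WT female pair and 1 over the male pair, and 0 in undifferentiated cells.

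Likeness of pattern was measured across the 12 libraries, as the root mean square difference of log2 CPM after each gene was centred on its mean. Among all tested genes, Hba-x was nearest to Hbb-bh1 (0.62), the endothelial receptor gene Cd93 (0.64) and Cdh5 (0.78), and Hbb-bh1 to Hba-x, Smoc2 (0.63) and Angpt1 (0.76), the ligand of Tek. Cdh5 was nearest to Mrvi1 (0.53), Tshz2 (0.67) and Itga8 (0.69). For Kdr the nearest were Tmem119 (0.41), Tspan18 (0.42) and Hapln1 (0.45), for Flt1 Clic6 (0.41), Igfbp4 (0.42) and Tgfbi (0.51), and for Tek Cdh16 (0.35), Plcb2 (0.35) and Hoxb6 (0.35). Pecam1 was nearest to Notch4 (0.34), another endothelial gene that fell in WT females and males, then Snapc5 (0.37) and Aldh1b1 (0.40). Hbb-y was nearest to Tmem26 (0.41), Srpx2 (0.42) and Gria2 (0.43), Tal1 to Pcolce (0.39), Mir493 (0.55) and Wdr60 (0.56), and Lmo2 to BC056474 (0.37), Ppp1r11 (0.44) and Tubb2a (0.45), and these 3 genes have few counts. The 12 libraries share their groups, so these values describe the libraries and carry no test.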

How the data were processed

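The authors deposited raw counts of reads per gene symbol for 12 libraries. The submitters' processing notes name edgeR 3.10.0, HTSeq 0.6.1p1, bcl2fastq 2.16.0.10 and TopHat2 2.0.12, and the mm10 build. The annotation and strand option are not given in the sources used here. Between libraries, reads assigned to no gene made up 45.4% to 53.3% of those in the table and were left out. Per the labels' protocols, RNA was reverse-transcribed with template switching, amplified, tagmented and amplified again; this does not mark strand, and no molecular identifiers were described.

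edgeR 4.0.16 (R 4.3.3) was fitted to the counts with 1 mean for each of 6 groups, TMM scaling, the default filter (minimum count 10), the quasi-likelihood F test and Benjamini-Hochberg adjustment over all 12814 genes tested. CPM use TMM-scaled library sizes. The step was tested on simulated data. Depth sets the precision: 3 counts correspond to 0.322 to 1.75 CPM in a single library, and a gene at 0 in a group was set to a floor of 3 counts over both libraries. Ratios of counts carry 95% exact intervals of counting error. Gene places come from GENCODE M21 (GRCm38, the same genome as mm10), promoters from the RefSeq table of GRCm38.p6.

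The 10 genes and the lists were chosen with earlier results of these data known. From each list the text names up to 4 genes with the smallest raw p for differentiation in any line, and for each of the 10 genes the 3 nearest genes, predicted genes left out. 1 gene that this rule names is not reported here. Ptprc, and Notch4's fall, were singled out after their values were seen, as were medians with genes at their floor. Alternatives were RLE size factors, no filter, a stricter filter (minimum count 50), DESeq2 1.42.0, a replicate block, only the libraries compared, Rn45s and Lars2 removed, and libraries left out.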

Additional observations from a re-analysis of the deposited data

How the results depend on the processing

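Every comparison was refitted under 20 alternatives, 12 of them without 1 library each. The share of all genes called moved too, so the counts below cannot be read on the 10 genes alone. With only the libraries compared, it went from 2.59% to 18.8% between the differentiated female groups. In that fit it went from 8.97% to 0.0414% for differentiated WT females and from 11.6% to 0.0862% for RlimKO-labelled females against males. In undifferentiated cells it went from 6.63% to 19.6% and from 10% to 23% in the same order. The count of called genes on differentiation in WT females (7) was 4 with the stricter filter, and 3 to 9 without 1 library. In RlimKO-labelled females (7) it was 4 to 8 without 1 library, and in males (9) it was 5 with only the libraries compared and 6 to 9 without 1 library. Between differentiated RlimKO-labelled and WT females the count (0) was 3 with no filter, 4 with only the libraries compared, 4 without the 2 libraries whose Rn45s shares were highest (replicate 1 of the differentiated RlimKO-labelled females) and lowest (replicate 2 of the differentiated males) and 0 to 4 without 1 library. For differentiated WT females against males (0) it was 3 with no filter, 6 without those 2 libraries and 0 to 8 without 1 library. For differentiated RlimKO-labelled females against males (1) it was 2 with no filter, 0 with only the libraries compared, 6 without those 2 libraries and 0 to 9 without 1 library. For undifferentiated WT females against males (0) it was 1 with only the libraries compared, 2 without those 2 libraries and 0 to 2 without 1 library. For undifferentiated RlimKO-labelled females against males (0) it was 1 with RLE size factors, 2 with no filter, 1 with only the libraries compared, 1 without Rn45s and Lars2, 2 without those 2 libraries and 0 to 2 without 1 library. For the difference in response, RlimKO-labelled against WT females (0) gave 1 with no filter, with only the libraries compared and without those 2 libraries, and 0 to 1 without 1 library. WT females against males (0) gave 1 with no filter, 3 without those 2 libraries and 0 to 3 without 1 library, and RlimKO-labelled females against males (0) gave 1 without those 2 libraries and 0 to 4 without 1 library. With the stricter filter Hbb-y and Tal1 did not pass, so they were not tested. Fitted on the male libraries alone, Hba-x, Hbb-y and Tal1 did not pass the default filter either. These account for 2 of the 3 calls missing in WT females and 3 of the 4 in males. The cause of the other changes was not tested.

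The log2 difference of a gene changed sign in some fits, most of them comparisons with males. Lmo2 stood at -0.026 in differentiated against undifferentiated RlimKO-labelled females without those 2 libraries. Hbb-y stood at -0.036 in differentiated WT females against males with DESeq2. Hbb-y stood at -1.01, Tal1 stood at -0.30, Lmo2 stood at -0.83 and Flt1 stood at 0.31 in differentiated WT females against males without those 2 libraries. Hbb-bh1 stood at -0.53, Tal1 stood at -0.10, Lmo2 stood at -0.27 and Tek stood at -0.85 in differentiated RlimKO-labelled females against males without those 2 libraries. Tek stood at 0.0015 in undifferentiated WT females against males with DESeq2. Tek stood at 0.0053 in undifferentiated WT females against males with only the libraries compared. Tek stood at 0.0030 in undifferentiated WT females against males without Rn45s and Lars2. Without 1 library in turn, the log2 differences that changed sign or went to 0 had these ranges. In differentiated against undifferentiated RlimKO-labelled females, the range was Tal1 from -0.091 to 0.88 and Lmo2 from -0.61 to 1.16. In differentiated against undifferentiated males, the range was Hbb-y from -2.28 to 7.82 and Lmo2 from -1.98 to 1.89. In differentiated RlimKO-labelled against WT females, the range was Tal1 from -0.086 to 0.22. In differentiated WT females against males, the range was Hba-x from -2.82 to 3.83, Hbb-y from -1.01 to 7.89, Hbb-bh1 from -2.23 to 3.03, Tal1 from -0.30 to 2.99, Lmo2 from -0.83 to 3.07, Kdr from -1.08 to 0.90, Flt1 from -0.99 to 0.32, Tek from -2.22 to 0.42, Pecam1 from -1.59 to 0.86 and Cdh5 from -1.95 to 2.95. In differentiated RlimKO-labelled females against males, the range was Hba-x from -2.003 to 4.63, Hbb-y from -1.68 to 7.21, Hbb-bh1 from -0.68 to 4.56, Tal1 from -0.22 to 3.06, Lmo2 from -0.0397 to 3.85, Kdr from -1.202 to 0.77, Tek from -0.78 to 1.85, Pecam1 from -1.91 to 0.52 and Cdh5 from -1.52 to 3.36. In undifferentiated RlimKO-labelled against WT females, the range was Hba-x from 0 to 3.88 and Hbb-bh1 from 0 to 5.39. In undifferentiated WT females against males, the range was Hbb-y from -3.53 to 0 and Tek from -0.076 to 0.038. In undifferentiated RlimKO-labelled females against males, the range was Hba-x from -3.75 to 0.11, Hbb-y from -3.53 to 0, Hbb-bh1 from -4.13 to 1.24 and Flt1 from -0.63 to 0.23. The cause was not tested.

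Replicate numbers showed no clear pairing of the libraries: over 15 pairs of groups, replicate deviations correlated at -0.066 to 0.103 (median 0.011), and 1 pair was over 0.1. With 2 libraries a group, this check cannot exclude a weak pairing. With the replicate block, 8 genes were called on differentiation in WT females (Hba-x was added), 7 in RlimKO-labelled females and 9 in males, and the count of called genes was as without it in the other 9 comparisons. Signs turned for Hba-x at 0.14, Hbb-y at 0.25 and Cdh5 at 0.12 in differentiated RlimKO-labelled females against males with the replicate block, Hbb-y at 0.091 in undifferentiated RlimKO-labelled against WT females with the replicate block, Cdh5 at -0.059 in undifferentiated RlimKO-labelled females against males with the replicate block. 2 of these, in undifferentiated cells, had 0 counts in both groups and a difference of 0 without the block.

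Levels under 1.75 CPM lie within the floor of 3 counts of the shallowest library, so undifferentiated levels of the globins and of Kdr and Cdh5 are limited by depth. With 2 libraries a group, a missed threshold does not show equal levels. Removing Rn45s and Lars2 shifted the median of all genes by -0.101 on differentiation in RlimKO-labelled females, and no other scaling shift exceeded 0.1.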
